A study of Mus musculus with 8 samples.

Results

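The 8 naive mouse corneas fell into 2 classes by how much stromal RNA they held. The classes were chosen by the measured levels of genes of stromal keratocytes such as Kera, Lum and Dcn. The 3 stroma-poor corneas were BALB/cN replicate 2 and C57BL/6N replicates 3 and 4. The 5 stroma-rich corneas were BALB/cN replicates 1, 3 and 4 and C57BL/6N replicates 1 and 2. Together they were all 8 corneas of the series, 4 from each inbred strain, and the labels give them no treatment (the labels write the first strain as Balb/c). The study's methods state male mice for the sequenced corneas, and the labels do not say whether the 4 corneas of a strain came from separate mice. The study sequenced these corneas to compare the strains and not the classes. Because the class was read from the data, everything below that sets stroma-poor against stroma-rich corneas is a description, with no test, and BALB/cN contributes 1 stroma-poor cornea only.

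The cornea is a layered tissue. A stratified epithelium that expresses the keratins Krt12 and Krt5 covers the outer face, and a single layer of endothelium that pumps water out of the tissue lines the inner face. Between them lies the stroma, a thick matrix of parallel collagen fibrils made by scattered keratocytes, which are flattened cells of neural crest origin. Small leucine-rich proteoglycans such as keratocan (Kera), lumican (Lum) and decorin (Dcn) sit on the fibrils and set their diameter and spacing, on which transparency depends. Expression values are relative within a library, so the share of one layer cannot move without the others.

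Expression is given as rlog values, which are normalised read counts on a log2 scale in which low counts are pulled towards the gene's mean. One unit is a 2-fold difference, the true fold of a low gene is understated, and the table gives no sequencing depth. Of 54532 genes, 25402 reached a mean of 0 on this scale and were used. The difference of a gene is its stroma-poor minus its stroma-rich level with strain held constant. A gene was counted as separated when every stroma-poor cornea lay below, or every one above, each stroma-rich cornea of its own strain, in both strains.

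The markers that defined the classes differed by several units. Kera measured 14.45, 14.36 and 14.44 in the stroma-rich BALB/cN corneas and 11.32 in the stroma-poor one. In C57BL/6N corneas Kera measured 14.90 and 14.85 in the stroma-rich and 9.85 and 10.46 in the stroma-poor class. No cornea lay between the classes: the highest stroma-poor value was 11.32 and the lowest stroma-rich value 14.36 in BALB/cN, against 10.46 and 14.85 in C57BL/6N. Lum, which binds collagen fibrils, measured 12.40, 12.52 and 12.51 against 9.57 in BALB/cN, and 12.68 and 12.56 against 8.13 and 8.52 in C57BL/6N. Dcn, another fibril-binding proteoglycan, measured 15.60, 15.46 and 15.61 against 12.91, and 16.09 and 15.98 against 12.08 and 12.24. The differences were −4.02 for Kera, −3.70 for Lum and −3.35 for Dcn. The stroma-poor BALB/cN cornea thus held 11.7%, 13.3% and 15.9% of the stroma-rich level of Kera, Lum and Dcn, and the stroma-poor C57BL/6N corneas held 3.81%, 5.08% and 6.81%. In bulk tissue, fewer keratocytes and less RNA per keratocyte cannot be told apart.

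**Figure D1:**
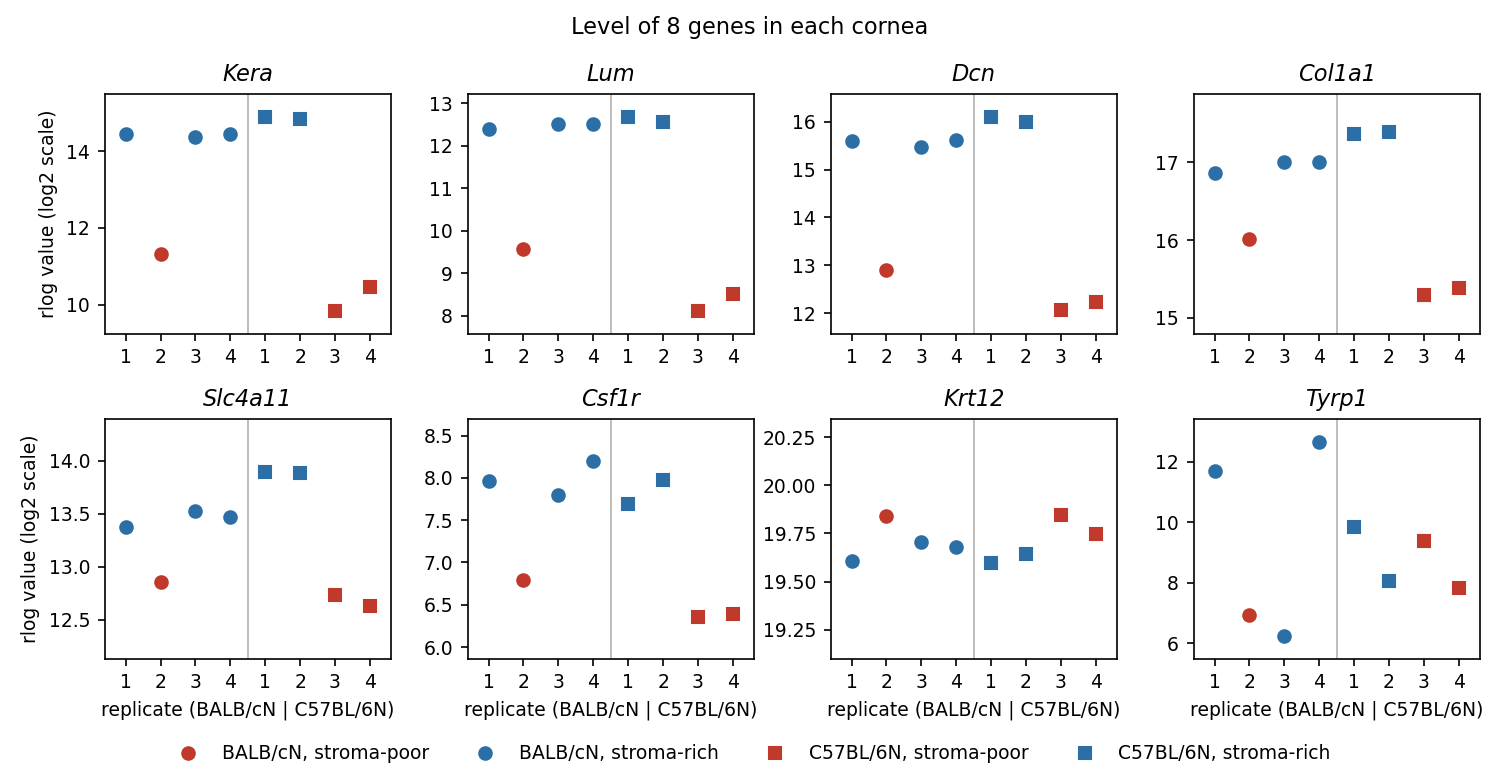
The level of 8 genes in each cornea (y axis, rlog value on a log2 scale; x axis, replicate number, with BALB/cN as circles left of the grey line and C57BL/6N as squares right of it; red, stroma-poor; blue, stroma-rich). Kera, Lum, Dcn, Col1a1, Slc4a11 and Csf1r were lower in all 3 red corneas, Krt12 was slightly higher in them, and Tyrp1, a pigment cell gene, was highest in BALB/cN replicates 1 and 4 at 11.68 and 12.65. Each panel has its own y range.

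BALB/cN replicates 1 and 4, both stroma-rich, stood apart in a second way that bears on the contrast. Their mean level of the pigment cell list was 8.60 and 9.40, against 5.54 to 7.14 in the other 6 corneas. The smooth muscle and pericyte list was at 8.35 and 8.79 against 6.09 to 7.14, and the lens list at 6.02 and 5.23 against 3.82 to 4.35. Results that touch these lists are therefore also given without the 2 corneas, a choice made after seeing the data. The median rlog value was 6.61 to 6.68 in the stroma-poor and 6.76 to 6.87 in the stroma-rich corneas, so centring each cornea on its median adds 0.157 to the median difference, and small positive differences depend on the scaling.

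Over all genes, 3742 were separated and lower in the stroma-poor corneas (14.7%) and 3385 were separated and higher (13.3%), with a median difference of −0.0046 units. After centring on the median the split was 1547 lower and 12292 higher, and after quantile normalization 2611 and 4881. Large differences ran one way under each scaling. At least 1 unit of difference with separation was seen for 437 genes lower (1.72% of genes tested, 419 of them protein-coding) and 2 genes higher (0.00787%). The counts were 296 and 5 after centring, and 338 and 2 after quantile normalization. Differences of at least 2 units were found for 41 separated genes, all lower. Of the 437 genes, 387 were further down in the C57BL/6N pair than in the BALB/cN cornea, with medians of −1.54 and −1.003 units. Without BALB/cN replicates 1 and 4, 380 of the 437 were still lower by 1 unit or more.

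**Figure D2:**
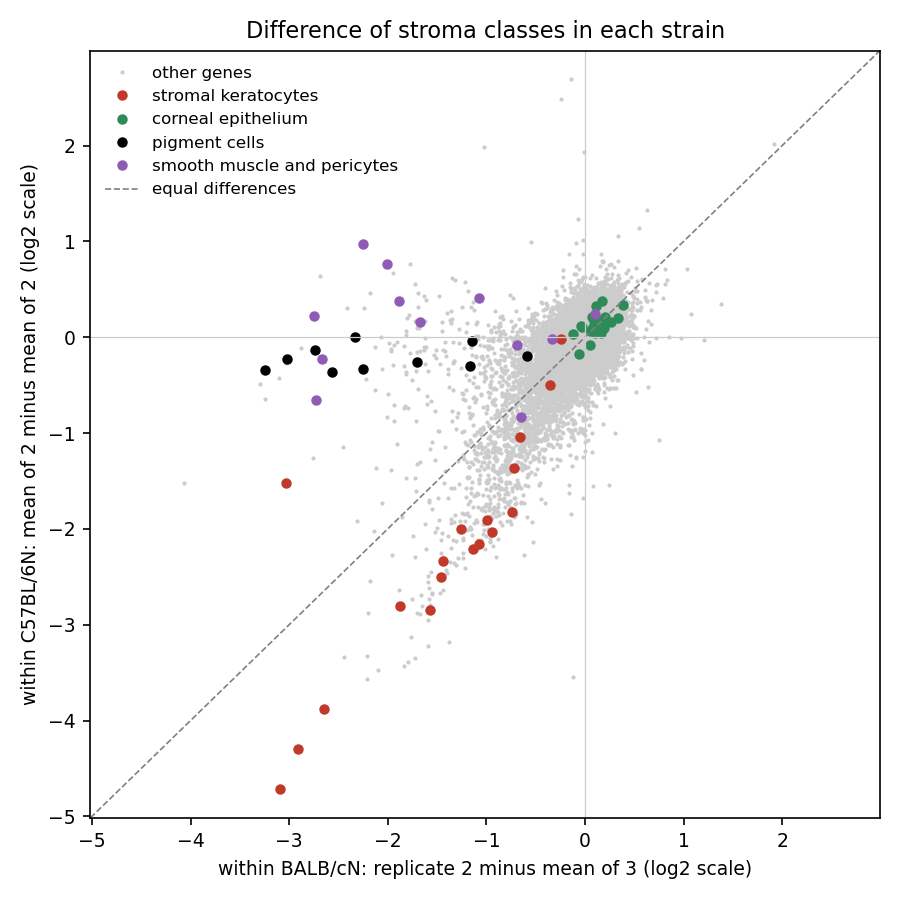
The difference of stroma classes within BALB/cN (x axis, replicate 2 minus the mean of replicates 1, 3 and 4) against that within C57BL/6N (y axis, the mean of replicates 3 and 4 minus the mean of replicates 1 and 2), in log2 units, 1 point a gene, with 4 gene lists in colour and a dashed line of equal differences. Most genes of the stromal keratocyte list lay low on both axes and below the dashed line. Pigment cell and smooth muscle genes were low on the BALB/cN axis only, and epithelial genes sat near 0. Over all genes the Pearson correlation was 0.639, as a description of 2 comparisons within the same normalized table.

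The 10 protein-coding genes with the lowest differences (mean rlog of at least log2(10)) were mostly secreted proteins of the matrix and of the fluid around cells. After Kera, Lum and Dcn came Apod, a lipid-binding lipocalin, at −2.98, and Agtr2, an angiotensin II receptor, at −2.95. Dpt, a matrix protein that binds decorin, followed at −2.88, Bgn (biglycan) at −2.85 and A2m, a broad protease inhibitor, at −2.74. Mgp, an inhibitor of calcification, was at −2.71 and Serpinf1, the anti-angiogenic factor PEDF, at −2.65. Apod measured 13.78, 13.45 and 13.58 in the stroma-rich and 11.40 in the stroma-poor BALB/cN corneas, and 13.55 and 13.38 against 9.73 and 10.07 in C57BL/6N. Both C57BL/6N values lay below that of the stroma-poor BALB/cN cornea.

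Kera, Lum and Dcn are neighbours in the genome. In GRCm38 (GENCODE M21) they lie in a row on the plus strand of chromosome 10, Dcn at 97479609 to 97518143, Lum at 97565128 to 97572703 and Kera at 97606879 to 97613692, with 47.0 kb and 34.2 kb between them. The next proteoglycan gene in that row, Epyc, at 97644068 to 97682454, had rlog values of −0.999 to −0.922, under the minimum for use. The differences of the 3 expressed neighbours ranked in the order of their positions. These genes set the classes, so this order only describes 3 values.

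The small leucine-rich proteoglycans as a family were lower in 10 of 13 members tested, none was higher, and the median difference was −1.95 units. Of the 10, 7 (Dcn, Kera, Lum, Ogn, Fmod, Prelp and Omd) are also in the keratocyte list that set the classes. Of the 6 members outside that list 3 were lower, with a median of −0.38. Prelp, which anchors basement membranes to the matrix, measured 11.56, 11.54 and 11.63 against 9.70 in BALB/cN and 11.88 and 12.01 against 9.04 and 9.23 in C57BL/6N, a difference of −2.41. Bgn measured 14.07, 14.00 and 14.15 against 11.86, and 14.74 and 14.62 against 11.14 and 11.57. Nyx, a proteoglycan of the retina, was at 1.89 to 2.02 in every cornea, with a difference of 0.05, and the classes overlapped. Centring on the median left 9 members lower and put 2 higher, where 1547 and 12292 of all 25402 genes were. The list of stromal keratocyte genes was used to set the classes, so its count is only a description of that choice: 16 of 18 members were lower and the median was −1.72 units. The 2 that overlapped were Thy1 (−0.11) and Ptgds (−2.17), a prostaglandin synthase named here after its values were seen.

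Keratan sulfate is the sugar chain that Kera and Lum carry in the cornea. Its synthesis list was split: 6 of 15 members were lower, 1 was higher, and the median was −0.11. B3gnt7 and Chst5, both lower, are also in the keratocyte list, and 4 of the other 13 members were lower. B3gnt7, which extends keratan sulfate chains, measured 10.02, 10.23 and 10.11 against 8.86 in BALB/cN and 10.64 and 10.46 against 8.58 and 8.52 in C57BL/6N (difference −1.68). Members with general roles in sugar chemistry sat near 0, such as B4galt1, a galactosyltransferase, at −0.06, St3gal2, a sialyltransferase, at 0.00 and Ugdh, which makes UDP-glucuronic acid, at −0.06. Papss1, which makes the sulfate donor, was the member that was higher, at 0.19, and its partner Papss2 was at −0.11.

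All 14 stromal collagen genes were lower in the stroma-poor corneas, with a median of −1.26 units (12 of 14 after centring). Of the 14, 4 (Col1a1, Col1a2, Col5a1 and Col6a1) belong to the keratocyte list that set the classes, and the other 10 had a median of −1.13. Col1a1, a chain of type I collagen, the main fibril of the stroma, measured 16.87, 17.00 and 17.01 against 16.02 in BALB/cN, and 17.36 and 17.38 against 15.30 and 15.38 in C57BL/6N. Its difference of −1.57 corresponds to 52.0% and 24.4% of the stroma-rich level, a smaller gap than that of the proteoglycan Kera. Col1a2, its partner chain, was at −1.69, the type VI chains Col6a2 and Col6a3 at −1.42 and −1.25, and Col12a1, which decorates fibrils, was lowest at −1.93. Col5a3 had the smallest difference, −0.45.

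The enzymes and chaperones that fold and cross-link collagen followed with 20 of 25 members lower, 1 higher and a median of −0.57. Lox, the cross-linking lysyl oxidase, was lowest at −1.90, Plod1, a lysyl hydroxylase, was at −1.87, the collagen chaperone Serpinh1 at −1.55 and Pcolce, which aids removal of the procollagen tail, at −1.10. P3h2, a prolyl hydroxylase, was at 0.15, and its classes overlapped. Pcolce2, a relative of Pcolce, was the member that was higher, at 0.38, with 8.42, 7.97 and 8.30 against 8.49 in BALB/cN and 7.85 and 7.91 against 8.27 and 8.43 in C57BL/6N. In BALB/cN its stroma-poor value exceeded the nearest stroma-rich value by less than the spread of the stroma-rich corneas.

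Among 31 genes of elastic fibres and other matrix, 21 were lower, 1 was higher and the median was −0.72, which became −0.42 without BALB/cN replicates 1 and 4. After centring 15 were lower. Mfap4, a microfibril protein, measured 12.24, 12.04 and 12.25 against 10.41 in BALB/cN and 12.65 and 12.66 against 9.49 and 9.57 in C57BL/6N (difference −2.54). Sparc, a collagen-binding matricellular protein, was at −2.31 and fibronectin (Fn1) at −0.38. Tgfbi, a matrix protein with known corneal dystrophy mutations, was the member that was higher, at 0.16, with 15.60, 15.71 and 15.63 against 15.78 and 15.48 and 15.48 against 15.69 and 15.63. Efemp1 (0.09) and Ecm1 (0.07) overlapped. The matrix genes were therefore not lower as a block.

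**Figure D3:**
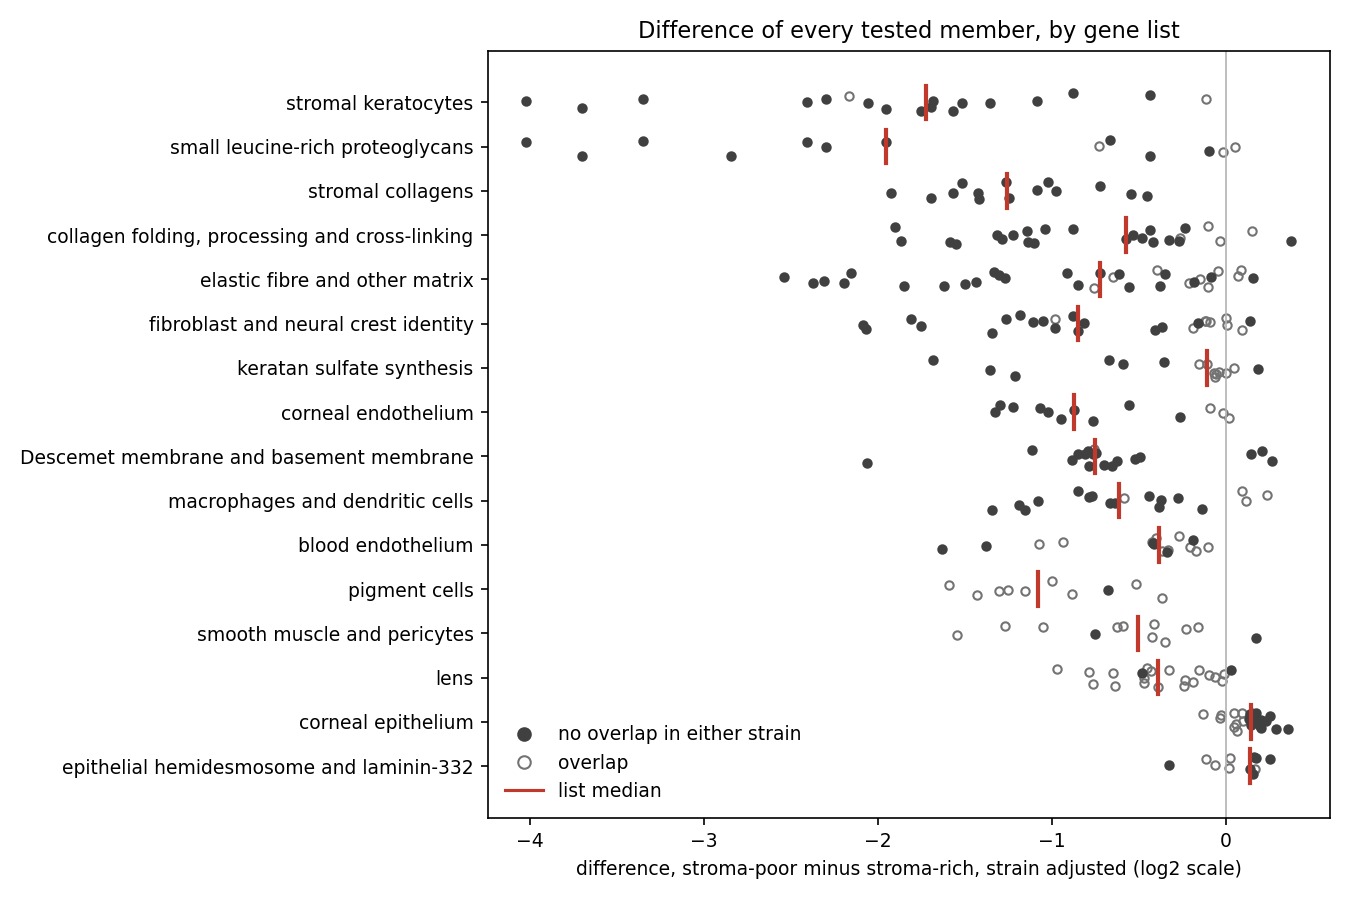
The difference of every tested member of 16 gene lists (x axis, stroma-poor minus stroma-rich with strain held constant, log2 units; filled circles, separated in both strains; open circles, overlapping; red bar, list median). Proteoglycan, collagen and keratocyte lists have medians of −1.95, −1.26 and −1.72, the endothelial list −0.87, and both epithelial lists 0.14. Pigment, smooth muscle and lens genes are mostly open circles.

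Transcription factors and surface proteins of fibroblasts and of neural crest derivatives were lower in 16 of 25 members and higher in 1, with a median of −0.85. Without Cd34, Pdgfra and Thy1, which the keratocyte list also holds, 14 of 22 were lower. Islr, a secreted protein of mesenchymal cells, was lowest at −2.08. The neural crest factor Tfap2b measured 12.97, 12.89 and 13.02 against 12.24 in BALB/cN and 12.91 and 12.89 against 11.18 and 11.28 in C57BL/6N (difference −1.26). Prrx1 was at −1.18 and Tcf4 at −1.05. Foxc1, a factor of anterior eye development, was the member that was higher: 12.48, 12.37 and 12.40 against 12.53 in BALB/cN, and 12.63 and 12.61 against 12.76 and 12.80 in C57BL/6N, a difference of 0.14.

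The corneal endothelium was lower along with the stroma. Of 13 genes of that layer, 10 were lower and none was higher, the median was −0.87, and the mean level of the list was 9.58 to 9.84 in the stroma-poor and 10.34 to 10.51 in the stroma-rich corneas. Slc4a11, a transporter needed for endothelial pumping, measured 13.37, 13.52 and 13.47 against 12.86 in BALB/cN and 13.90 and 13.88 against 12.74 and 12.63 in C57BL/6N (difference −0.95). The water channel Aqp1, also made by keratocytes, was at −1.33, the bicarbonate transporter Slc4a4 at −0.87 and Col8a2, a collagen of Descemet's membrane on which the endothelium rests, at −0.76. Of 18 basement membrane genes, 14 were lower and 3 higher, with a median of −0.75. Lama2, a laminin chain of mesenchymal tissue, was lowest at −2.06, Col4a3 was at −0.76 and perlecan (Hspg2) at −0.52, and the 3 that were higher were Lamb1 (0.27), Agrn (0.21) and Lama5 (0.15).

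The corneal epithelium was the counterpart. Of 25 epithelial genes, 15 were higher in the stroma-poor corneas and none was lower, with a median of 0.14. Krt12, the cornea-specific keratin, measured 19.61, 19.70 and 19.68 against 19.84 in BALB/cN and 19.60 and 19.64 against 19.85 and 19.75 in C57BL/6N. Its difference of 0.18 turned to −0.042 after quantile normalization. Krt5 was at 0.15, desmoplakin (Dsp) at 0.16, and Dsg1a, a desmosomal cadherin of upper layers, highest at 0.36. Krt14 (−0.13) and the corneal crystallin Aldh3a1 (−0.03) overlapped. After centring 20 of the 25 were higher with a median of 0.30, and after quantile normalization 10 with a median of 0.08. Of all 25402 genes, 12292 and 4881 were higher in those settings. Hemidesmosome and laminin-332 genes, which anchor the basal cells, had 5 of 11 higher and 1 lower, with Col17a1 at 0.26 and Itgb1 at −0.33, and without BALB/cN replicates 1 and 4 the number lower was 3. Membrane mucins had 1 of 7 higher and none lower, and genes of the conjunctiva 1 of 9 higher and none lower, where 13.3% of all genes were separated and higher. Muc4, the mucin with the highest level, was at 0.05 with overlap.

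Of the genes that were higher in the stroma-poor corneas, 2 passed 1 unit. Vaultrc5, a small non-coding vault RNA named after its values were seen, measured 10.32, 10.14 and 10.04 against 12.09 in BALB/cN and 10.17 and 10.39 against 12.62 and 11.99 in C57BL/6N, a difference of 1.98. Cyp4a12a, a cytochrome P450 that hydroxylates fatty acids, measured 8.43, 7.95 and 7.93 against 8.73 in BALB/cN and 8.34 and 8.40 against 10.05 and 9.34 in C57BL/6N, a difference of 1.03. It belongs to a family of near-identical copies among which reads may be divided. The other 9 of the 10 highest protein-coding genes lay between 0.51 and 0.60, among them Upk3b (0.56), the chromatin protein Hmgb2 (0.56), Duoxa2 (0.54), the lymphoid factor Ikzf3 (0.52) and cytoplasmic actin Actg1 (0.51). Rpl36a-ps1 (0.58) is a copy of a ribosomal protein gene and may share reads with it. Fam177a (0.60) was barely separated in C57BL/6N, at 4.452 in 1 stroma-poor cornea against 4.447 in the higher stroma-rich one. Cdk5rap1 (0.56) and Spire2 (0.52) completed the 10.

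Resident immune cells of the cornea lie mostly in the stroma. Of 18 genes of macrophages and dendritic cells, 14 were lower, where 14.7% of all genes were, none was higher and the median was −0.61. Csf1r, the receptor for the growth factor of macrophages, measured 7.96, 7.80 and 8.20 against 6.79 in BALB/cN and 7.69 and 7.97 against 6.36 and 6.39 in C57BL/6N (difference −1.35). The antigen presentation gene Cd74 was at −1.08 and lysozyme (Lyz2) at −0.66. Itgam (0.24), Cd68 (0.11) and Aif1 (0.10) overlapped. Of 9 complement genes tested, 6 were lower and 1 was higher, with a median of −1.09. The inhibitor Serping1 was at −2.25 and the proteases C1s1 and C1ra at −2.12 and −1.64, while C3 (−0.11) overlapped and C4a was higher at 0.27. C4a and C4b are near-identical copies, so their split is uncertain. Of the mast cell, lymphocyte and neutrophil, and red cell lists, 4 of 10, 4 of 16 and 5 of 7 genes were tested. Most were at low levels, but Kit, the mast cell member that was higher, had a mean of 13.09 and a difference of 0.38. The list medians lay between −0.09 and 0.03 units, with no more than 2 lower and 1 higher member in each.

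The healthy central cornea has no blood vessels, and vessels end at its rim, the limbus. Blood endothelial genes were lower in 6 of 16 members and higher in none, where 14.7% and 13.3% of all genes were. Their median of −0.38 became −0.12 without BALB/cN replicates 1 and 4. After centring 2 were lower, where 1547 of all 25402 genes were. The endothelial VEGF receptor Kdr measured 10.23, 9.999 and 9.94 against 9.10 in BALB/cN and 10.22 and 10.33 against 8.06 and 8.23 in C57BL/6N (difference −1.63). The transcription factor Erg was at −1.38. Tie1 (−0.40), Vwf (−0.36) and Flt1 (−1.07) were at lower levels than Kdr and Erg, and their classes overlapped. Flt1 measured 6.89 and 7.91 in BALB/cN replicates 1 and 4 and 4.28 to 5.19 elsewhere. Of 6 lymphatic endothelial genes, 2 were lower (none after centring), with a median of −0.24, and Lyve1 was at 1.27 to 1.41 in every cornea. Nerve and Schwann cell genes had 5 of 16 lower and 2 higher, from S100b at −1.34 to Erbb3 at 0.27. Their median of −0.32 became −0.23 without BALB/cN replicates 1 and 4. The classes of S100b overlapped. It measured 6.90 and 7.97 in those 2 corneas and 4.50 to 6.48 elsewhere, and its difference became −0.61 without them.

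Pigment, smooth muscle and lens lists did not follow the stroma classes. Pigment cell genes had 1 of 10 lower and none higher. Their median of −1.08 became −0.05 without BALB/cN replicates 1 and 4. The pigment enzymes Dct and Tyrp1 were at −3.02 and −3.25 within BALB/cN and at −0.23 and −0.35 within C57BL/6N. Smooth muscle and pericyte genes had 1 of 12 lower and 1 higher, with a median of −0.51 that became 0.19, with 3 higher, without those corneas. Lens genes had 1 of 21 lower and 1 higher, with a median of −0.39 that became 0.09, with 2 higher. Acta2, the actin of smooth muscle, measured 11.24, 6.63 and 11.95 in the stroma-rich and 7.28 in the stroma-poor BALB/cN corneas, so it was high in replicates 1 and 4 and not in replicate 3. Photoreceptor genes had 2 of 7 lower, cartilage and sclera genes 4 of 10, trabecular meshwork and ciliary body genes 4 of 10 and skeletal muscle genes 6 of 15, none of them with a higher member, at medians of −0.17, −0.32, −0.20 and −0.18. Without BALB/cN replicates 1 and 4 the cartilage and trabecular medians became −0.15 and −0.10. In that setting 10 of the 15 skeletal muscle genes were lower, where 4914 of all 25402 genes were. After centring the numbers lower were 1 of 7, 2 of 10, 1 of 10 and 1 of 15. Of all 25402 genes, 14.7% were lower before centring and 1547 genes after it. The lower genes of the cartilage and trabecular lists included Fmod (−2.30) and Mgp, which keratocytes also express. The part of these tissues in the contrast was not tested beyond leaving out the 2 corneas.

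**Figure D4:**
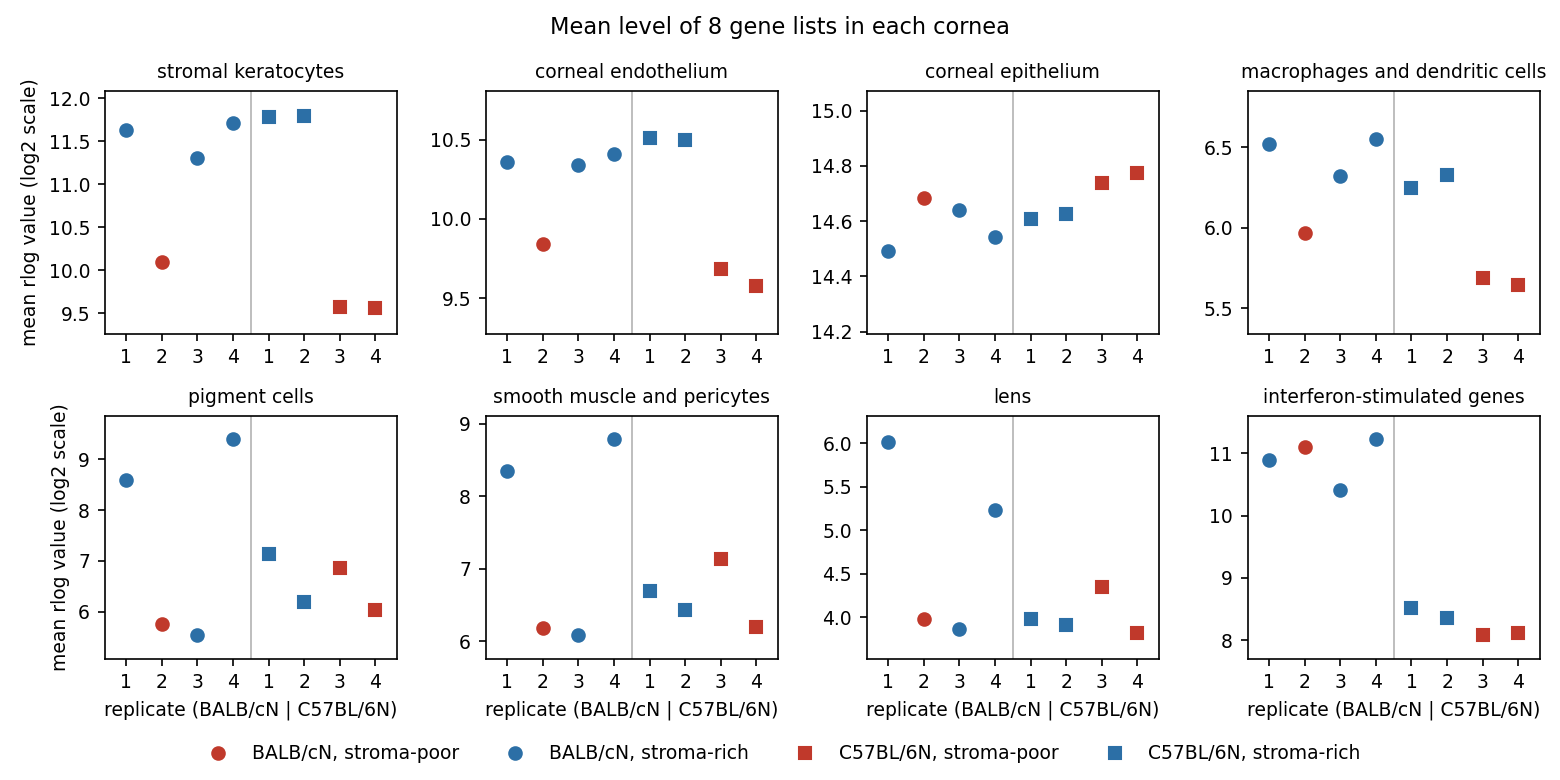
The mean level of 8 gene lists in each cornea (y axis, mean rlog value on a log2 scale; x axis, replicate number, BALB/cN as circles left of the grey line and C57BL/6N as squares right of it; red, stroma-poor; blue, stroma-rich). Keratocyte, endothelial and macrophage lists split by class, the epithelial list ran the other way within 14.49 to 14.77, pigment, smooth muscle and lens lists were highest in BALB/cN replicates 1 and 4, and interferon-stimulated genes split by strain. Each panel has its own y range.

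The study concerns regulators of lymphatic vessels. The cells that made their transcripts were not identified in these bulk corneas. Of 26 regulators of lymphangiogenesis and angiogenesis, 13 were lower, where 14.7% of all genes were, none was higher, and the median was −0.43. Without BALB/cN replicates 1 and 4 the median became −0.30. Serpinf1 measured 12.66, 12.67 and 12.77 against 10.98 in BALB/cN and 13.17 and 13.04 against 9.68 and 9.82 in C57BL/6N. The vessel inhibitors Thbs2 and Thbs1 were at −2.20 and −1.34, and the semaphorin receptor Nrp2 at −0.97. Vegfd (0.02) and Sema3f (−0.04) overlapped. Members of the insulin-like growth factor axis were lower in 8 of 12 cases (5 after centring) with none higher and a median of −0.71: Igfbp2 was lowest at −1.91 (14.84, 14.71 and 14.69 against 13.43, and 15.06 and 14.89 against 12.69 and 12.55), Igfbp4 was at −1.36 and the receptors Igf1r and Igf2r at −0.12 and 0.01. Of 17 genes of the TGF-beta and fibrosis response, 8 were lower and 1 higher with a median of −0.18, and the receptor Tgfbr1 was at 0.18. After centring 5 of the 17 were lower and 4 higher, where 1547 and 12292 of all 25402 genes were. Ccn2 measured 12.34, 10.31 and 10.58 against 11.15 within BALB/cN, so its difference of −0.85 came from C57BL/6N.

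Signs of handling and of RNA quality were compared as well. Of 18 immediate early and stress genes, 2 were lower and 3 higher, where 14.7% and 13.3% of all genes were. Their median of −0.07 became −0.04 without BALB/cN replicates 1 and 4. After centring none was lower and 4 were higher, where 1547 and 12292 of all 25402 genes were. The heat shock genes Hspa1b and Hspa1a, near-identical copies, were at 0.45 and 0.31 and Fosb at −0.76 (10.27 in BALB/cN replicate 1 and 7.91 to 9.28 elsewhere). Cell cycle genes had 1 of 22 lower and none higher, with Mki67, a mark of dividing cells, at 0.15. Without BALB/cN replicates 1 and 4 the number lower was 9, where 4914 of all 25402 genes were lower. After centring 0 of the 22 were lower and 6 higher, where 1547 and 12292 of all genes were. Messenger RNAs of the mitochondrial genome were lower in 6 of 13 cases and higher in none, with a median of −0.35, from mt-Nd1 at −0.64 to mt-Co2 at 0.49. Of the 13, 3 were higher without those corneas or after centring, where 4526 and 12292 of all 25402 genes were. The part of these lists in the result was not tested.

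Strain is given by the labels and not by the class rule, so strains were compared at equal class by limma on all 25402 genes. With the adjusted p-value held to 0.01, 1082 genes were higher (4.26%) and 1069 lower (4.21%) in BALB/cN, 2151 in all. Without class in the model 1458 genes were called, of which 1456 were among the 2151, so 695 genes were called only with class. Of the 437 genes lower by 1 unit or more in stroma-poor corneas 16 (3.66%) differed between strains, against 8.47% of all genes tested. Calls made only with class were 13 of the 437 genes and 695 of all 25402. The median residual SD of the 437 genes was 0.270 units, against 0.0915 for all genes. A strain difference thus had to be larger to be called. The total was 1275 without BALB/cN replicate 2, 1325 and 1310 without C57BL/6N replicates 1 and 2, and 996 without BALB/cN replicates 1 and 4. When p-values were recalibrated to an empirical null, no gene was called (2036 had an unadjusted p-value under 0.05, and the smallest adjusted value was 0.133).

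At equal class limma called 4 of 25 fibroblast and neural crest genes, 2 of 15 of keratan sulfate synthesis, 3 of 31 of elastic fibres and other matrix, 2 of 25 of collagen processing and 1 of 14 collagens, where 8.47% of all genes were called. With the stroma-rich corneas alone the collagen count was 5 of 14, of which 4 were lower in BALB/cN. In that fit 852 of all 25402 genes were called, 441 of them lower in BALB/cN. Keratocyte genes set the class, so no strain count is given for their list. The lists above share members with it: 4 collagens, 3 fibroblast and neural crest genes and 2 of keratan sulfate synthesis. Their counts thus rest in part on genes that set the class. Col1a1, which is in the keratocyte list, was among the collagens called lower in BALB/cN with the stroma-rich corneas alone. Kera averaged 13.64 ± 1.55 in the BALB/cN and 12.51 ± 2.73 in the C57BL/6N corneas (SD, n = 4 each, both classes together). The collagen called at equal class was Col3a1, a fibril collagen named after its values were seen, higher in BALB/cN by 2.21 ± 0.11 units (SE; limma adjusted p = 6.0e-07), with 10.64 to 11.57 in BALB/cN and 8.05 to 9.44 in C57BL/6N.

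Of the genes discussed in the study, Cbs, Vegfa, Runx2 and Angptl4 had larger differences between strains than between classes, while Kdr had a class difference of −1.63 and a strain difference of 0.20 ± 0.19 units (SE; limma adjusted p = 0.57). Cbs, the enzyme of hydrogen sulfide synthesis that the study followed up, measured 4.94, 5.22, 4.98 and 5.19 in BALB/cN replicates 1 to 4 and 7.52, 7.26, 7.26 and 7.26 in C57BL/6N. The strains did not overlap, at a difference of −2.24 ± 0.11 units (SE; limma adjusted p = 5.3e-07), while the class difference was 0.0010. Vegfa, a growth factor for blood vessels, differed by 0.80 ± 0.11 (SE; adjusted p = 0.00068) with a class difference of −0.27 and overlap. The transcription factor Runx2 differed by 0.78 ± 0.060 (SE; adjusted p = 1.1e-05), with a class difference of −0.24 and separation, and Angptl4, a secreted regulator of lipases and vessels, by −0.74 ± 0.095 (SE; adjusted p = 0.00045), with a class difference of −0.14 and overlap. For each of the 4, the exact permutation test of 4 against 4 corneas gave the smallest two-sided p it allows, 0.0286. All 19 interferon-stimulated genes tested were called higher in BALB/cN at equal class, where 4.26% of all genes were. None of the 19 was separated by class, where 14.7% of all genes were lower and 13.3% higher. However, 5 were higher in stroma-poor corneas after median centring and 3 without BALB/cN replicates 1 and 4. Of all 25402 genes, 12292 and 4526 were higher in those settings.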

How the data were processed

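Strand-specific libraries were made from total RNA of naive corneas, 4 per strain, and read as pairs of 100 bases. The authors trimmed and filtered the reads, aligned them to strain-specific versions of GRCm38 with TopHat2 (2.1.1), returned the alignments to reference coordinates, counted them per Ensembl gene with HTSeq (0.7.1) and deposited the rlog output of DESeq2 (1.30), a log2 scale, in decimal commas. No counts or depths were in the table, so precision is given by the spread between corneas only. Corneas were not said to come from separate mice, so p-values measure the spread between these samples.

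Genes whose rlog values averaged 0 or more were used. The class difference is the coefficient of limma's lmFit (limma 3.58.1, R 4.3.3) with strain as covariate and was not tested. Strains were compared by limma with class as covariate, a variance trend and Benjamini-Hochberg adjustment at 0.01. Single genes were compared by exact permutation (scipy 1.17.1). The procedure was tested on simulated data. Tables and plots were made in Python 3.11.15 (matplotlib 3.10.9, pandas 2.3.3, numpy 2.4.6), with GENCODE M21 for positions and names (31278 of 31314 genes not at 0 in all corneas).

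The corneas of each class and the 35 gene lists were chosen with earlier results of these data known. Named genes are Kera, Lum and Dcn, the members of each list with the lowest and highest difference and up to 4 of the highest mean, the 10 lowest and 10 highest separated protein-coding genes with a mean of at least log2(10), and Cbs, Vegfa, Runx2 and Angptl4. Others are said to be named after their values were seen, and some members that this rule names are not reported here. Alternatives were leaving out each cornea, median centring, quantile normalization, other filters, fits within strain and with the replicate number as a block, other variance models and other thresholds. Leaving out BALB/cN replicates 1 and 4 together was added after seeing the data. No pair of corneas was near-identical (root mean square difference 0.157 to 0.486 units), and 0 columns were unused.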

Additional observations from a re-analysis of the deposited data

Results flagged for a closer look

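In groups of 4 corneas, a value was set aside for a closer look when its gap to the nearest other cornea, as a share of the group's whole range, exceeded Dixon's 95% limit. Of 118 groups examined, 21 exceeded it, where chance gives about 5.9. Of the 21, 18 were BALB/cN replicate 2, the only stroma-poor cornea of its strain, which the class rule chose for low stromal genes, so these shares restate that choice. Its share of the range was 0.885 for the proteoglycan list, 0.986 for stromal collagens, 0.868 for collagen processing and 0.879 for the corneal endothelium. For single genes it was 0.972 for Kera, 0.959 for Lum, 0.945 for Dcn, 0.937 for Bgn, 0.861 for Apod, 0.941 for Serpinf1, 0.952 for Prelp, 0.851 for B3gnt7, 0.884 for Mfap4, 0.832 for Tfap2b, 0.896 for Igfbp2 and 0.857 for Col1a1. The same cornea was the high one for Pax6, a regulator of eye development named after its values were seen, at 0.868, and for Vaultrc5 at 0.864. Pax6 measured 15.60, 15.58 and 15.58 in the stroma-rich and 15.76 in the stroma-poor BALB/cN corneas, and 15.64 and 15.65 against 16.03 and 16.01 in C57BL/6N.

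The remaining 3 did not follow the stroma contrast. BALB/cN replicate 4 was high for the lymphocyte and neutrophil list, at 0.904 of the range, with a list mean of 2.62 against 2.44 to 2.46 in the other BALB/cN corneas. C57BL/6N replicate 2 was high for the red blood cell list, at 0.878, with 2.28 against 2.17 to 2.19. C57BL/6N replicate 1 was high for Cbs, at 0.993. Cbs was also separated in opposite directions in the strains, a difference between them that was not tested: the stroma-poor cornea was higher by 0.181 units in BALB/cN (5.218 against 4.94 to 5.19), and both were lower in C57BL/6N, at 7.2572 and 7.2567 against 7.2585 in the nearer stroma-rich cornea.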

How the results depend on the processing

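The counts of separated genes moved with the scaling. After median centring 1547 genes were lower and 12292 higher, while quantile normalization, other filters and the loss of BALB/cN replicates 1 and 4 kept both counts within 1.5 times. Leaving out each cornea in turn gave 3995 to 6811 lower and 3740 to 7097 higher, since fewer corneas have to separate, with the highest counts without BALB/cN replicate 2, which leaves the C57BL/6N corneas alone to decide. The median difference of the keratocyte list was −1.20 within BALB/cN alone and −2.09 within C57BL/6N alone, and −2.09 to −1.61 with each cornea left out. That of the epithelial list was 0.30 after centring, 0.082 after quantile normalization and 0.14 to 0.16 with each cornea left out. Krt12 turned to −0.042 after quantile normalization, and Lyve1, which lies near the floor, to 0.066 after median centring. No other named gene that was separated changed sign under an alternative.

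Strain calls (2151, of which 1082 higher and 1069 lower in BALB/cN) fell to 1275 to 1953 with each cornea left out (597 to 961 higher, 645 to 992 lower). They were 996 without BALB/cN replicates 1 and 4 (517 and 479), 852 with the stroma-rich corneas alone (411 and 441), 3788 at an adjusted p-value of 0.05 (1909 and 1879) and 0 with an empirical null. Without class in the model 718 were higher. Deviations of same-numbered corneas from their strain means had correlations of 0.31, −0.53, −0.20 and −0.45 for replicates 1 to 4. Class was not removed from them. Replicate 1 was stroma-rich in both strains, and replicates 2, 3 and 4 were of opposite class. The correlations therefore cannot decide whether the numbers pair the corneas. With the replicate number as a block 1402 genes were called (708 and 694). With the stroma-rich corneas alone Vegfa was at 0.67 (adjusted p = 0.034), and Cbs, Runx2, Angptl4 and Col3a1 kept their calls under each alternative but the empirical null. Depth is not given by the table and could not be examined. The causes were not tested.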
